A study of Homo sapiens with 12 samples.

Results

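Ribosome biogenesis and nucleolar genes were followed in K562, an established cell line from a human chronic myeloid leukaemia. The cells had received a negative control siRNA, siNC, or one that targets RHOB, siRHOB. The 40 genes were chosen by symbol from a list of factors that make ribosomal RNA and build the ribosomal subunits, and all 40 were found among the 19225 genes of the deposited tables. All 40 passed the filter on low counts, which kept 14026 genes. The 12 libraries form 4 groups of 3: Ctl_siNC and Ctl_siRHOB in growth medium, and MK_siNC and MK_siRHOB in megakaryocyte differentiation medium (MK medium). The design text gives a culture time of 3 days, and whether it holds for growth medium as well as MK medium is not clear from its wording. The labels call the siNC cells wild type and the siRHOB cells RHOB knockdown. Every group is the same cell line after siRNA transfection. The sources used here do not say what the MK medium contains or whether replicates came from separate cultures, and p-values therefore reflect spread among these libraries alone, which may be technical.

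Ribosome production starts in the nucleolus, where RNA polymerase I copies the ribosomal DNA into a long precursor. Small nucleolar ribonucleoproteins (snoRNPs) modify that precursor, the small subunit processome folds and cleaves it, and separate sets of assembly factors build the small and large subunits before export to the cytoplasm. Growing cells invest heavily in this pathway, and the transcription factor MYC is known to activate many of its genes.

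Libraries held 34412558 to 54048161 reads. With siNC, depths did not overlap between the media, at 41117941 reads or more in Ctl_siNC and 37024392 or fewer in MK_siNC. With siRHOB they overlapped, at 38653567 reads or more in Ctl_siRHOB and 41872422 or fewer in MK_siRHOB. Counts were scaled for depth, and any remaining part of depth in the medium comparison was not tested. RHOB, the siRNA target, was examined first. It stood at 6.20, 4.68 and 1.42 CPM (read counts scaled to a common library size with TMM factors) in Ctl_siNC 1, 2 and 3 and at 3.17, 3.30 and 0.465 CPM in Ctl_siRHOB. In MK medium it stood at 12.8, 10.1 and 32.7 CPM with siNC and at 12.6, 15.5 and 22.1 CPM with siRHOB. The siRNA groups overlapped in each medium, although RHOB was lower with siRHOB in every replicate number of growth medium, and it passed no test between the siRNAs (adjusted p = 1 in both media, edgeR). The knockdown libraries are therefore called by their label, siRHOB. All 10 K562 markers, among them globins, GATA1 and TAL1, had reads in every library, and their summed level ranged over 2903 to 4451 CPM in growth libraries and 5057 to 8541 CPM in MK libraries. Of 9 markers of other cell types, 8 had reads in every library, with sums of 151 to 218 CPM and 311 to 358 CPM in the same order. The B cell marker MS4A1 was at 0 in all 12 libraries, and CD3E, a T cell marker, did not exceed 0.351 CPM. The part of these shifts in the results below was not tested. Within groups, replicate 3 lay apart from replicates 1 and 2. Over the 40 genes, its median log2 distance from their mean was -0.10 in Ctl_siNC, -0.09 in Ctl_siRHOB, -0.30 in MK_siNC and -0.24 in MK_siRHOB. Over all genes tested this median was 0.002, 0, 0.002 and -0.004 in the same order.

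Promoter sequence was examined because the genes moved together. RefSeq entries of GRCh38.p14, 250 bases before to 50 bases after the annotated start, were matched by symbol for 34 of the 40 genes; BOP1, DDX18, NOLC1, NOP58, RRP12 and RRS1 had no entry in the table. The motif CACGTG, an E-box of the kind bound by MYC and related factors, reads the same on both strands. It was present in 12 of 34 windows (35.3%), against 1292 of 14514 windows of all matched genes of the tables (8.90%) and 958 of 9378 windows of genes with at least 500 reads in all (10.2%). Each of the 12 holds a single match, and 9 of the matches begin 4 to 36 bases after the start, close to where transcription begins. They are shown with 10 bases on either side (9 on the right for NOP2, at the edge of the window), in the direction of the gene and from the strongest to the weakest fall in MK medium, with the motif in capitals.
FBL, chr19:39846358-39846383, minus strand: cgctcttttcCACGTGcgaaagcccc
WDR43, chr2:28894660-28894685, plus strand: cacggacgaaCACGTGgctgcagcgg
UTP20, chr12:101280085-101280110, plus strand: tttttccgtcCACGTGacccactcag
MRTO4, chr1:19251809-19251834, plus strand: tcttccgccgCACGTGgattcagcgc
RRP9, chr3:51941894-51941919, minus strand: gttcagctgcCACGTGagttctgcgg
LTV1, chr6:143843356-143843381, plus strand: cctggggctgCACGTGtggtgaggcc
EBNA1BP2, chr1:43172792-43172817, minus strand: tattgttggcCACGTGggatcgaaga
PNO1, chr2:68157887-68157912, plus strand: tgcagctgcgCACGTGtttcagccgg
PES1, chr22:30591882-30591907, minus strand: cttggcagggCACGTGcgggaggaag
NOP14, chr4:2963376-2963401, minus strand: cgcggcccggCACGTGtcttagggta
NOP2, chr12:6568242-6568266, minus strand: gtccggattgCACGTGgagggccgc
BYSL, chr6:41921517-41921542, plus strand: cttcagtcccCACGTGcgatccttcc

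All 12 genes with the motif fell in MK medium with control siRNA, with a median log2 fold change of -1.17 and a range of -1.51 to -0.89. Of the 22 genes with a window but no match, 21 fell, with a median of -1.11 and a range of -1.61 to 0.02. The ranges with and without the motif overlapped. Of all 40 genes 38 fell, where 28.4% of all genes tested did. The share that fell among all genes of the tables with the motif was not computed. Other motifs were searched on both strands in the same windows. The ETS motif CCGGAAG was in 11 of 34 windows (32.4%), against 14.5% of all matched genes and 19.95% of those with at least 500 reads. The NRF1 motif was in 2 (5.88%), against 1.74% and 2.34% in the same order. The YY1 motif AAGATGGC was also in 2 (5.88%), against 4.02% and 5.65%, a share near that of the genes with at least 500 reads. A match describes the letters only and is no site shown to be bound.

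Some of the genes host small nucleolar RNA genes. In GENCODE release 29, 8 of the 40 genes (20%) carry at least 1 small nucleolar RNA gene within their bounds on the same strand, against 258 of 18711 protein-coding genes of the tables (1.38%). GNL3 holds 6, NOP56 holds 5, NOP58 holds 4, NCL and WDR43 hold 3 each, PPAN and TSR1 hold 2 each and POLR1C holds 1. Their host transcripts were measured here, and the small RNAs themselves were not analysed. Of the 34 genes with a promoter entry, 17 (50%) had the start of another gene on the opposite strand within 1000 bases upstream, against 2661 of 14514 (18.3%).

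The genes were abundant in growth medium. With control siRNA their median level was 59.0 FPKM, a length-scaled unit, against 8.03 FPKM over all tested genes, and 38 of 40 exceeded that value. NPM1 led at 1607 ± 168 FPKM (SD, n = 3), followed by NCL at 534 ± 28.2, DDX21 at 273 ± 7.39 and FBL at 273 ± 22.1 FPKM. DDX21 and FBL did not differ beyond their spread. These 4 kept ranks 1 to 4 in MK_siNC, at 703, 221, 113 and 100.4 FPKM. UTP15 (13.6 ± 0.779 FPKM), PPAN (2.54 ± 0.694 FPKM) and BOP1 (1.31 ± 0.628 FPKM) were the lowest in Ctl_siNC. Together the 40 genes took 1.08%, 1.07% and 1.00% of the reads of Ctl_siNC 1, 2 and 3 and 1.08%, 1.08% and 1.06% in Ctl_siRHOB. In MK medium they took 0.524%, 0.522% and 0.413% with siNC and 0.517%, 0.486% and 0.433% with siRHOB. No library in MK medium reached the share of any library in growth medium.

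**Figure D1:**
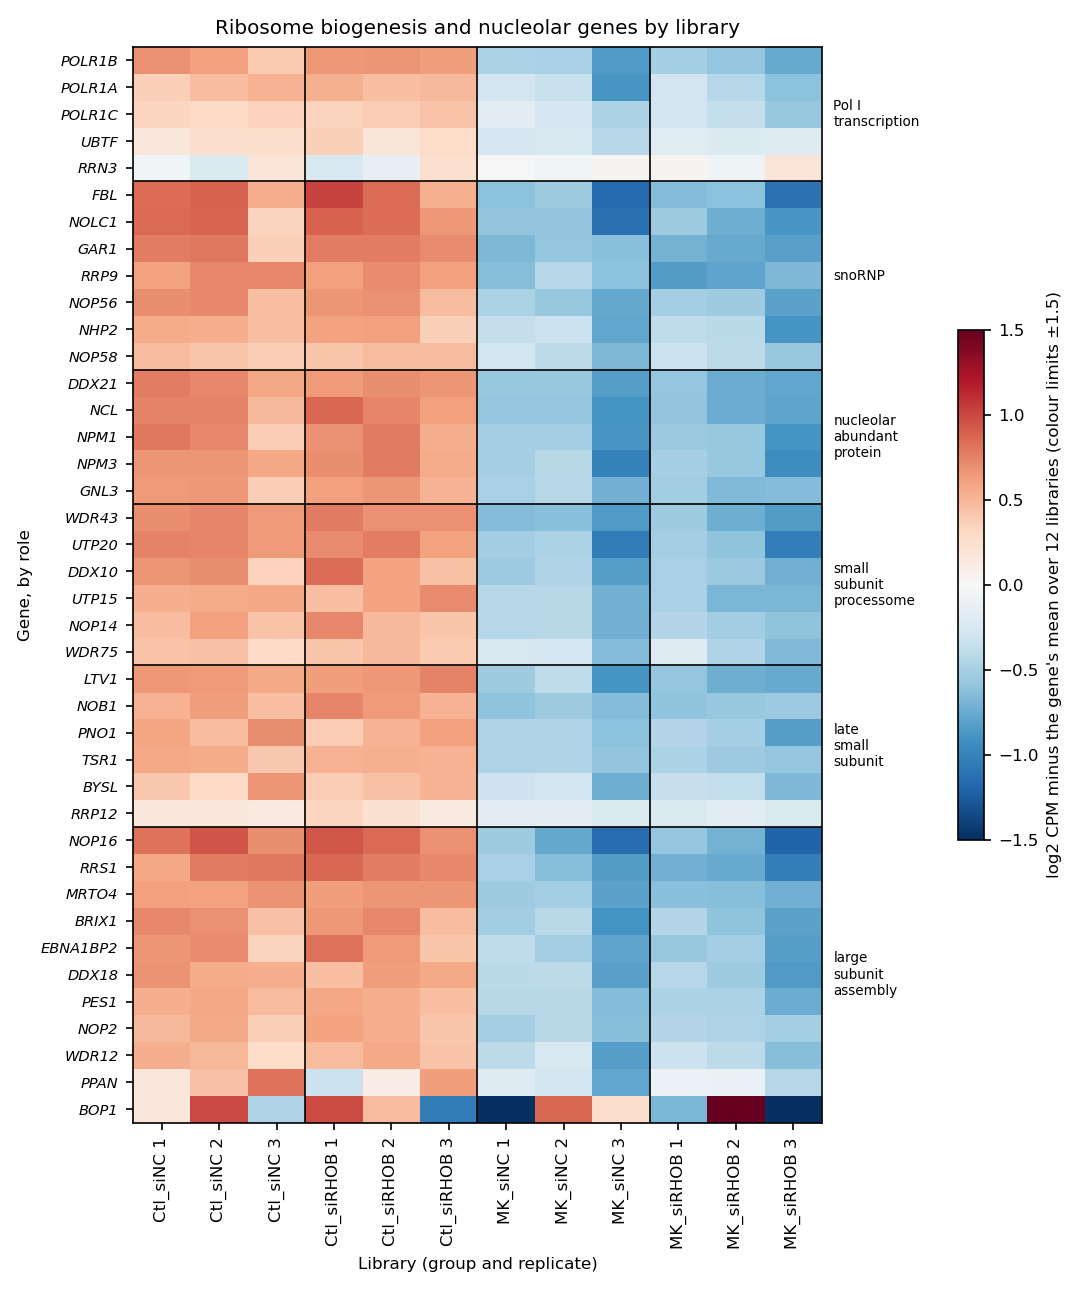
Level of each of the 40 genes (rows, grouped by role) in each of the 12 libraries (columns), as log2 CPM minus the mean of that gene over all libraries. Growth medium libraries are red and MK medium libraries blue for nearly every gene, RRN3, PPAN and BOP1 depart from this, and replicate 3 is the deepest blue column in MK_siNC.

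The first comparison was MK medium against growth medium with control siRNA. Of the 40 genes, 38 fell, none rose and 2 did not pass (edgeR quasi-likelihood F test, Benjamini-Hochberg adjusted p under 0.05 over all genes tested), where 28.4% of all genes tested fell and 30.5% rose. The median log2 fold change was -1.12, against 0.06 over all genes. The 38 genes kept 32.7% to 79.4% of their level in growth medium. Less than 50% of the level was kept by 27 genes, where 6.26% of all genes fell that far. Libraries of both groups did not overlap for the 38 genes, where 31.5% of all genes were lower without overlap. A test for falls of more than 1.5-fold (glmTreat) left 33 of the 40 genes, where it left 9.08% of all genes. In bulk samples fewer cells with high levels and less RNA per cell cannot be told apart, and every level is relative to the rest of the polyT-selected RNA.

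**Figure D2:**
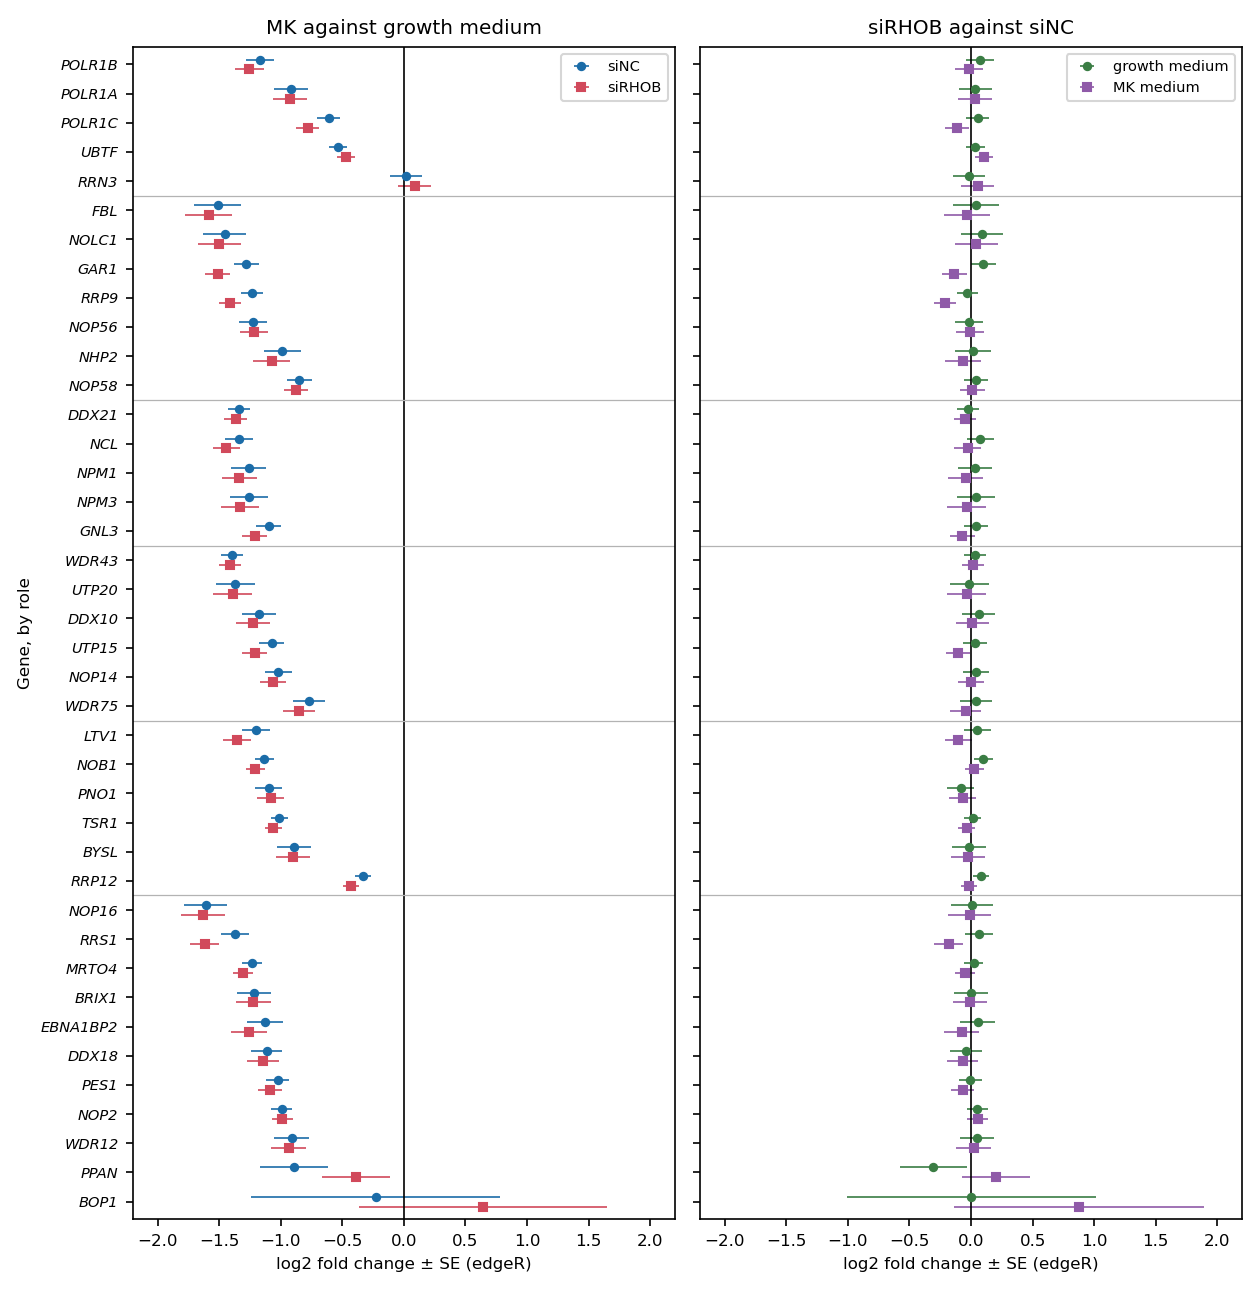
Fitted log2 fold change of each gene with its SE (horizontal bars), by role. Left, MK medium against growth medium with siNC (circles) and siRHOB (squares), with medians of -1.12 and -1.21; right, siRHOB against siNC in growth medium (circles) and MK medium (squares), where values other than those of PPAN and BOP1 lie between -0.21 and 0.11.

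Genes of RNA polymerase I transcription fell least as a group, 4 of 5 with a median of -0.61. POLR1B, the second largest subunit of the enzyme, stood at 117, 112 and 95.9 CPM in Ctl_siNC 1, 2 and 3 and at 114, 116 and 112 CPM in Ctl_siRHOB 1, 2 and 3. In MK medium it stood at 52.3, 52.0 and 40.4 CPM in MK_siNC and 51.6, 48.9 and 43 CPM in MK_siRHOB. The media did not overlap, and the log2 fold change was -1.17 ± 0.11 with siNC (SE, adjusted p = 1.04e-05, edgeR). POLR1A, the largest subunit, changed by -0.92 ± 0.14, and POLR1C, a subunit shared with RNA polymerase III, by -0.61 ± 0.09 (adjusted p = 0.000199 and 0.000241). UBTF, which binds the ribosomal DNA promoter and keeps active repeats open, stood at 229, 244 and 245 CPM in Ctl_siNC 1, 2 and 3 and at 261, 229.9 and 246 CPM in Ctl_siRHOB 1, 2 and 3. It stood at 170.3, 174 and 151 CPM in MK_siNC and 179, 176 and 178 CPM in MK_siRHOB, a smaller fall than that of most of the genes (-0.54 ± 0.07, adjusted p = 0.000107). RRN3, the factor that makes polymerase I competent to initiate, did not pass. It stood at 86.1, 76.5 and 102 CPM in Ctl_siNC 1, 2 and 3 and at 75.4, 81.3 and 105 CPM in Ctl_siRHOB 1, 2 and 3. It was at 89.5, 86.5 and 91.6 CPM in MK_siNC and 91.1, 85.2 and 101 CPM in MK_siRHOB, within the range of growth medium, and the log2 fold change was 0.02 ± 0.13 (adjusted p = 0.913). Leaving out single libraries moved it between -0.08 and 0.13.

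The 7 snoRNP genes all fell, with a median of -1.23. FBL, fibrillarin, the methyltransferase of box C/D snoRNPs, stood at 344, 354 and 280.5 CPM in Ctl_siNC 1, 2 and 3 and at 387, 344 and 278 CPM in Ctl_siRHOB 1, 2 and 3. It fell to 125, 132 and 86.2 CPM in MK_siNC and 123, 125 and 89.2 CPM in MK_siRHOB. The lowest library in growth medium was above the highest in MK medium by a wide margin, and the change with siNC was -1.51 ± 0.19 (SE, adjusted p = 5.96e-05). NOP56 and NOP58, the paired scaffold proteins of the same particle, fell by different amounts, with log2 fold changes of -1.22 ± 0.12 and -0.85 ± 0.10. NOLC1, a chaperone of snoRNPs, stood at 589, 600.3 and 411 CPM in Ctl_siNC 1, 2 and 3 and at 604, 583 and 513 CPM in Ctl_siRHOB 1, 2 and 3. In MK medium it was at 217, 216 and 150.5 CPM in MK_siNC and 226, 197 and 179 CPM in MK_siRHOB, lowest in replicate 3 of each group (-1.45 ± 0.17, adjusted p = 4.11e-05). GAR1, of the box H/ACA particle that makes pseudouridine, stood at 112, 114 and 84.4 CPM in Ctl_siNC 1, 2 and 3 and at 112, 112 and 108 CPM in Ctl_siRHOB 1, 2 and 3. It was at 41.2, 43.8 and 42.8 CPM in MK_siNC and 40.1, 39.0 and 37.3 CPM in MK_siRHOB (-1.28 ± 0.10, adjusted p = 2.73e-06). Its partner NHP2 changed by -0.99 ± 0.15. RRP9, which belongs to the U3 snoRNP, stood at 43.4, 47.1 and 47.2 CPM in Ctl_siNC 1, 2 and 3 and at 43.9, 47.0 and 43.7 CPM in Ctl_siRHOB 1, 2 and 3. It was at 18.4, 21.3 and 18.8 CPM in MK_siNC and 16.1, 16.5 and 18.0 CPM in MK_siRHOB, with no overlap between media (-1.23 ± 0.09, adjusted p = 1.11e-06).

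The 5 genes grouped under abundant nucleolar proteins all fell in RNA level, within a narrow range of -1.34 to -1.10. The group name is by role, and NPM3 was at rank 21 of the 40 genes by FPKM in Ctl_siNC. NCL, nucleolin, which binds precursor RNA and chromatin, stood at 1568, 1569 and 1321 CPM in Ctl_siNC 1, 2 and 3 and at 1702, 1561 and 1436 CPM in Ctl_siRHOB 1, 2 and 3. It was at 626, 628 and 509 CPM in MK_siNC and 626, 561 and 544 CPM in MK_siRHOB, below every growth medium library (-1.34 ± 0.11, SE, adjusted p = 3.48e-06). DDX21, an RNA helicase of polymerase I transcription and processing, stood at 1409, 1363 and 1235 CPM in Ctl_siNC 1, 2 and 3 and at 1286, 1341 and 1307 CPM in Ctl_siRHOB 1, 2 and 3. It was at 558, 558 and 467 CPM in MK_siNC and 552, 495 and 480.2 CPM in MK_siRHOB (-1.34 ± 0.09, adjusted p = 8.78e-07). NPM1, nucleophosmin, a histone and ribosome chaperone that helps to form the nucleolus, was at 2533, 2412 and 1908 CPM in Ctl_siNC 1, 2 and 3 and at 2356, 2517 and 2129 CPM in Ctl_siRHOB 1, 2 and 3. It was at 1039, 1025 and 799 CPM in MK_siNC and 992, 990.4 and 792 CPM in MK_siRHOB (-1.26 ± 0.14, adjusted p = 2.78e-05). The media did not overlap, and replicate 3 was the lowest of each group. NPM3, a relative of NPM1, changed by -1.26 ± 0.16 and GNL3, nucleostemin, by -1.10 ± 0.10.

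**Figure D3:**
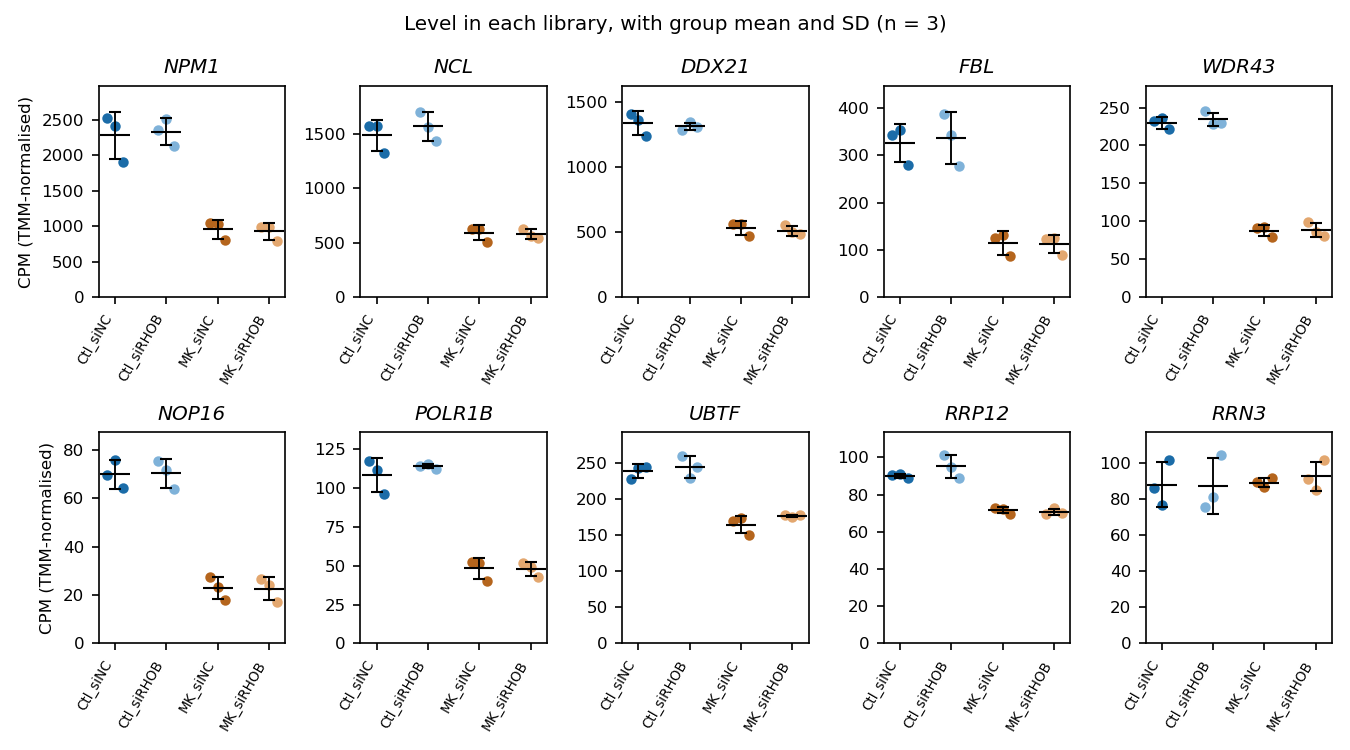
TMM-normalised CPM of 10 genes in each library (points, replicates 1 to 3 from left to right) with the group mean and SD (bars, n = 3), each axis starting at 0. NPM1 to POLR1B are lower in all MK medium libraries, UBTF and RRP12 are lower by less, and RRN3 overlaps between the media.

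All 6 small subunit processome genes fell. WDR43, a subunit of the UTP-A complex that binds the precursor as it is made, stood at 232, 237 and 221 CPM in Ctl_siNC 1, 2 and 3 and at 245, 229 and 229.9 CPM in Ctl_siRHOB 1, 2 and 3. It was at 90.7, 92.6 and 79.2 CPM in MK_siNC and 98.6, 86.0 and 80.0 CPM in MK_siRHOB, with tight replicates on either side (-1.39 ± 0.09, SE, adjusted p = 6.20e-07). UTP15, of the same complex, stood at 68.7, 69.5 and 70.5 CPM in Ctl_siNC 1, 2 and 3 and at 64.7, 71.9 and 77.0 CPM in Ctl_siRHOB 1, 2 and 3. It was at 35.1, 35.4 and 28.7 CPM in MK_siNC and 33.6, 29.3 and 29.3 CPM in MK_siRHOB (-1.07 ± 0.10, adjusted p = 7.58e-06). WDR75, a further UTP-A subunit, changed by only -0.77 ± 0.13. The large scaffold UTP20, the helicase DDX10 and NOP14 changed by -1.37 ± 0.16, -1.17 ± 0.14 and -1.02 ± 0.11.

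Late small subunit factors also fell in 6 of 6 cases. NOB1, the endonuclease that makes the mature end of 18S ribosomal RNA, stood at 115, 124 and 110.0 CPM in Ctl_siNC 1, 2 and 3 and at 133, 125 and 115 CPM in Ctl_siRHOB 1, 2 and 3. It was at 52.8, 55.2 and 51.1 CPM in MK_siNC and 53.0, 54.1 and 54.9 CPM in MK_siRHOB (-1.13 ± 0.08, SE, adjusted p = 7.37e-07). TSR1, a GTPase-like factor of the cytoplasmic precursor, stood at 167, 166 and 149 CPM in Ctl_siNC 1, 2 and 3 and at 161, 163 and 162 CPM in Ctl_siRHOB 1, 2 and 3. It was at 81.4, 82.6 and 75.0 CPM in MK_siNC and 81.0, 76.8 and 75.2 CPM in MK_siRHOB (-1.01 ± 0.07, adjusted p = 9.94e-07), again with no overlap. LTV1, PNO1 and BYSL, which ride on the small subunit precursor, changed by -1.20 ± 0.11, -1.10 ± 0.11 and -0.89 ± 0.14. RRP12, an export factor, had the smallest fall that passed. It stood at 90.3, 91.2 and 88.8 CPM in Ctl_siNC 1, 2 and 3 and at 101, 95.0 and 89.0 CPM in Ctl_siRHOB 1, 2 and 3. It was at 72.6, 72.2 and 69.7 CPM in MK_siNC and 69.6, 72.7 and 70.0 CPM in MK_siRHOB, apart from growth medium though by little (-0.33 ± 0.06, adjusted p = 0.00108).

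Large subunit assembly factors fell in 10 of 11 cases, with a median of -1.12. NOP16, a factor of early large subunit particles, had the largest fall of the 40 genes. It stood at 69.5, 75.9 and 64.0 CPM in Ctl_siNC 1, 2 and 3 and at 75.5, 71.5 and 63.9 CPM in Ctl_siRHOB 1, 2 and 3. It was at 27.3, 23.3 and 17.9 CPM in MK_siNC and 26.5, 24.3 and 17.3 CPM in MK_siRHOB, lowest in replicate 3, and kept 32.7% of its level with siNC (-1.61 ± 0.18, SE, adjusted p = 2.14e-05). RRS1, which helps to bring in the 5S particle, stood at 47.0, 54.1 and 54.8 CPM in Ctl_siNC 1, 2 and 3 and at 57.6, 53.7 and 52.0 CPM in Ctl_siRHOB 1, 2 and 3. It was at 22.5, 20.2 and 17.6 CPM in MK_siNC and 19.1, 18.6 and 15.4 CPM in MK_siRHOB (-1.37 ± 0.12, adjusted p = 3.79e-06). MRTO4, a placeholder for the stalk protein of the large subunit, stood at 158, 157 and 165 CPM in Ctl_siNC 1, 2 and 3 and at 159.6, 164 and 164 CPM in Ctl_siRHOB 1, 2 and 3. It was at 71.6, 72.8 and 59.5 CPM in MK_siNC and 67.1, 66.8 and 63.0 CPM in MK_siRHOB (-1.24 ± 0.08, adjusted p = 6.69e-07). BRIX1, EBNA1BP2 and the helicase DDX18 changed by -1.22 ± 0.14, -1.13 ± 0.15 and -1.12 ± 0.13. NOP2, a methyltransferase of 28S ribosomal RNA, changed by -0.99 ± 0.08. PES1 and WDR12, which form the PeBoW complex with BOP1, changed by -1.03 ± 0.09 and -0.91 ± 0.14.

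PPAN and BOP1 were measured poorly. PPAN had 97 to 348 reads per library. It stood at 5.03, 6.06 and 7.87 CPM in Ctl_siNC 1, 2 and 3 and at 3.58, 4.83 and 6.91 CPM in Ctl_siRHOB 1, 2 and 3. It was at 3.90, 3.69 and 2.59 CPM in MK_siNC and 4.21, 4.17 and 3.31 CPM in MK_siRHOB and passed with siNC (-0.90 ± 0.28, SE, adjusted p = 0.0161). The call was lost without Ctl_siNC 3 (log2 fold change -0.71, adjusted p = 0.0607) or MK_siNC 3 (-0.75, adjusted p = 0.0536), and with siRHOB PPAN did not pass (-0.39 ± 0.28, adjusted p = 0.241). In GENCODE release 29 it shares its strand and sequence with PPAN-P2RY11, which was listed at 0 reads in every library, and the treatment of shared reads is not stated. BOP1 had 20 to 475 reads and stood at 2.42, 4.33 and 1.58 CPM in Ctl_siNC 1, 2 and 3 and at 4.28, 3.03 and 1.05 CPM in Ctl_siRHOB 1, 2 and 3. It was at 0.557, 3.95 and 2.62 CPM in MK_siNC and 1.35, 11.1 and 0.561 CPM in MK_siRHOB, with no order between the groups (-0.23 ± 1.01 with siNC, adjusted p = 0.858). Leaving out single libraries moved this value between -0.82 and 0.24. The FPKM level of BOP1 was 0.0218 ± 0.0104 of that of its partner PES1 in Ctl_siNC (SD, n = 3), where WDR12 stood at 0.948 ± 0.0672 of PES1. Of the 40 genes, 13 have bounds in GENCODE release 29 that overlap a protein-coding gene of the tables on the opposite strand. They are BOP1, BRIX1, EBNA1BP2, GNL3, MRTO4, NHP2, NOP16, PES1, POLR1C, RRN3, TSR1, UTP15 and WDR12. Exons were not compared and strand settings are not given, so whether reads of overlapping genes were mixed was not tested. This point is open for RRN3, which did not pass, and for NOP16, which fell most. The share of all genes with such an overlap was not computed. How reads that match several copies of a gene were counted is not stated, and its part in the values was not tested.

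Partners of a complex did not all fall by the same factor. Ratios of FPKM between partners do not depend on library scaling, although their absolute size depends on the gene lengths the authors used. Of 11 ratios computed, 5 had ranges that did not overlap between media in both siRNA arms. With siRHOB alone, GAR1 to NHP2 and POLR1B to POLR1A were lower in MK medium without overlap, and WDR12 to PES1 was higher. How often ratios of other gene pairs separate in this way was not computed. Single genes often did, with siNC 31.5% lower and 34.3% higher without overlap, so the 5 ratios describe these pairs alone. WDR75 to WDR43 was 0.774 ± 0.0166 in Ctl_siNC and 1.19 ± 0.0885 in MK_siNC (SD, n = 3). With siRHOB it went from 0.782 ± 0.0462 to 1.15 ± 0.0689. UTP15 to WDR43 ranged over 0.207 to 0.224 in Ctl_siNC and 0.255 to 0.273 in MK_siNC. WDR43 therefore lost more than WDR75 and UTP15, the partners compared here. NOP58 to NOP56 was 0.707 ± 0.0587 and 0.910 ± 0.0347 in the same groups, and FBL to NOP56 was 1.75 ± 0.0420 and 1.43 ± 0.203. POLR1C to POLR1A was 2.43 ± 0.138 and 3.05 ± 0.370. NPM3 to NPM1 stayed at 0.0370 ± 0.00448 and 0.0364 ± 0.00309, and PNO1 to NOB1 at 0.635 ± 0.0881 and 0.646 ± 0.0262, each within the spread.

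**Figure D4:**
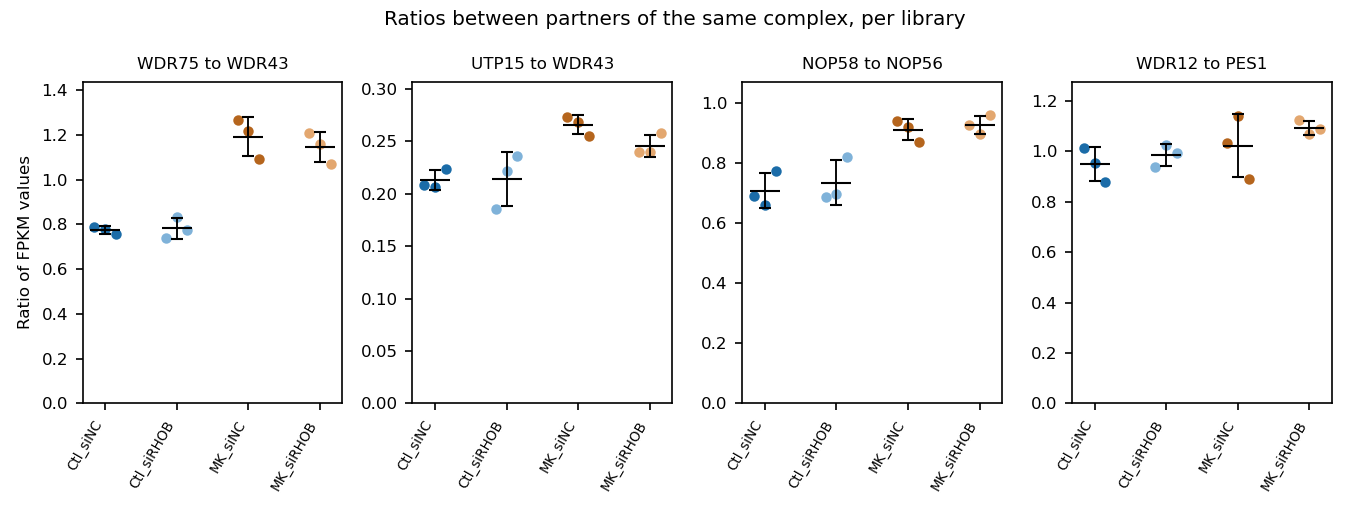
Ratios of FPKM values between partners of the same complex in each library (points, replicates 1 to 3 from left to right), with group mean and SD (bars, n = 3), each axis starting at 0. WDR75 to WDR43, UTP15 to WDR43 and NOP58 to NOP56 are higher in MK medium in every library. WDR12 to PES1 overlaps between Ctl_siNC and MK_siNC and is higher without overlap in MK_siRHOB than in Ctl_siRHOB.

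The same comparison was made in the libraries labelled siRHOB, which share no library with the siNC arm. Here 37 of the 40 genes fell and none rose, where 29.1% of all genes fell and 31% rose, with a median log2 fold change of -1.21 against 0.05 over all genes. RRN3, PPAN and BOP1 did not pass (0.09 ± 0.13, -0.39 ± 0.28 and 0.65 ± 1.01, SE). Leaving out single libraries moved these values between -0.02 and 0.23 for RRN3, between -0.60 and -0.12 for PPAN and between -1.54 and 1.17 for BOP1. The 37 genes kept 32.3% to 74.4% of their level, and 28 kept less than 50%, where 6.92% of all genes fell that far. Libraries of both groups did not overlap for the 37 genes, where 32.1% of all genes were lower without overlap. Falls of more than 1.5-fold were called for 35 genes, against 9.94% of all genes. NOP16 (-1.63 ± 0.18), RRS1 (-1.62 ± 0.12), FBL (-1.58 ± 0.19), GAR1 (-1.51 ± 0.10) and NOLC1 (-1.50 ± 0.17) had the largest falls (adjusted p = 1.71e-05, 1.09e-06, 3.86e-05, 7.44e-07 and 2.97e-05, edgeR).

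Libraries of number 3 deviated together across groups, and the fall was also read within each number. With siNC the median of the 40 genes was -1.10, -1.05 and -1.25 on the log2 scale for numbers 1, 2 and 3, and with siRHOB -1.15, -1.19 and -1.25. Within these pairs 38 genes with siNC and 37 with siRHOB were lower in 3 of 3, where 37.1% and 37.2% of all genes were. The exceptions were RRN3 and BOP1 in both arms and PPAN with siRHOB. In MK medium 37 of 40 genes with siNC and 36 of 40 with siRHOB were lower in replicate 3 than in the mean of replicates 1 and 2, and in growth medium 29 and 28 were. The share over all genes tested was not counted, but their median log2 distance lay between -0.004 and 0.002 in every group. With replicates 1 and 2 alone the counts of genes that fell were again 38 and 37.

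The difference of the medium effect between the siRNA arms passed for none of the 40 genes (edgeR; 0 at an unadjusted p under 0.05, where 0.756% of all genes had such a p and 0% passed the adjusted threshold). The share of 0.756% lies below 0.05, the share expected where no gene differs, so p-values of the main fit ran high here. DESeq2 and limma on FPKM values called none either, and neither did edgeR among all genes. With replicates 1 and 2 alone, edgeR again called none of the 40. There 2 of them had an unadjusted p under 0.05, where 577 of 13895 genes had such a p. Apart from PPAN and BOP1, the difference ran from -0.25 for RRS1 to 0.07 for UBTF on the log2 scale, with SE between 0.0914 and 0.264. For PPAN it was 0.51 ± 0.39 and for BOP1 0.87 ± 1.43.

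RHOB siRNA was then set against control siRNA within each medium, the comparison that bears on RHOB itself. No gene of the 40 passed in either medium (edgeR, adjusted p = 1 for each), where 0% of all genes did. At an unadjusted p under 0.05 growth medium had 0 of 40, where 1.11% of all genes had such a p. MK medium had 1 of 40, where 0.356% of all genes did. Both shares over all genes lie below 0.05, the share expected where no gene differs, so p-values of this fit ran high. DESeq2 and limma on log2(FPKM + 1) also called none, with 0 and 1 of the 40 at an unadjusted p under 0.05. An edgeR fit with replicate number as a block called none and gave 0 and 1 as well, where 301 and 115 of 14026 genes had such a p. With replicates 1 and 2 alone, edgeR called none of the 40 and gave 0 and 3, where 812 and 338 of 13895 genes had such a p. Apart from PPAN and BOP1, log2 differences lay between -0.08 (PNO1) and 0.10 (NOB1) in growth medium, with SE between 0.0645 and 0.186. In MK medium they lay between -0.21 (RRP9) and 0.11 (UBTF), with SE between 0.0647 and 0.187. RRP9 was the gene with an unadjusted p under 0.05 in the main fit (-0.21 ± 0.09, adjusted p = 1, edgeR), and its difference was -0.03 ± 0.09 in growth medium. The medians of the 40 genes were 0.036 and -0.028. Medians within numbers 1, 2 and 3 were -0.02, -0.10 and 0.05 in MK medium, with no shared direction. A missed threshold does not show equal levels, and RHOB itself overlapped between the siRNAs.

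Other genes of the pathway were read from 6 lists written from knowledge of ribosome assembly, 153 genes in all, and all 153 were tested. With control siRNA 136 fell and 5 rose in MK medium, and with siRHOB 136 fell and 4 rose, with medians of -0.77 and -0.82 on the log2 scale. Over all genes tested, 28.4% fell and 30.5% rose with siNC and 29.1% fell and 31% rose with siRHOB, which is the background for each list below. Of 15 other polymerase I factors, some shared with other polymerases, 13 fell and none rose with siNC (median -0.64), among them POLR1E (-1.18 ± 0.11, SE) and TWISTNB, now POLR1F (-0.83 ± 0.09). Of 41 further small subunit processome genes, 39 fell and 1 rose (median -0.76). DHX37, a helicase that frees U3, and IMP3, a U3-binding protein, changed by -1.28 ± 0.09 and -1.21 ± 0.08, and RCL1, a cleavage factor, rose by 1.00 ± 0.13. Of 13 further snoRNP genes, 12 fell (median -0.52), with the pseudouridine synthase DKC1 at -0.90 ± 0.09 and the assembly factor NAF1 at -0.82 ± 0.08. Large subunit factors fell in 46 of 47 cases (median -1.05), with RRP1B at -1.68 ± 0.08 and NIFK at -1.05 ± 0.06. Of 17 RNA exosome and processing nuclease genes, 14 fell (median -0.66), with EXOSC3 at -0.98 ± 0.06 and EXOSC2 at -0.89 ± 0.08.

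Export and late steps were mixed. Of 20 genes, 12 fell and 4 rose with siNC (median -0.51). RIOK1, a kinase of the late small subunit precursor, and RAN, the GTPase of nuclear transport, changed by -1.45 ± 0.15 and -0.93 ± 0.09 (SE, adjusted p = 1.70e-05 and 8.83e-06). EFL1, the GTPase that releases EIF6 from the new large subunit, rose by 0.96 ± 0.12, and the kinase RIOK3 by 0.62 ± 0.08 (adjusted p = 4.58e-05 and 4.84e-05). RIOK3 went from 182, 174 and 169 CPM in Ctl_siNC to 252, 268 and 285 CPM in MK_siNC, with no overlap. EIF6 itself stood at -0.20 ± 0.10 (adjusted p = 0.111), which did not pass. In the siRNA comparisons none of the 153 passed in either medium (edgeR).

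MYC stood at 229.8, 255 and 225 CPM in Ctl_siNC and 294, 255 and 222 CPM in Ctl_siRHOB. In MK medium it stood at 81.0, 79.5 and 65.2 CPM with siNC and 82.3, 77.5 and 62.7 CPM with siRHOB, and fell by 1.65 and 1.79 on the log2 scale (adjusted p = 2.91e-06 and 1.42e-06, edgeR). Its fall was larger than that of any of the 40 genes in point estimate, and whether MYC bears on their levels was not tested.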

How the data were processed

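RNA of K562 cells was polyT-selected, copied into cDNA and amplified by PCR, per the labels' protocols. The authors deposited a table of read counts, as whole numbers by gene symbol, and a table of FPKM. Within each gene, deposited FPKM is proportional to count over library total, so 1 gene length serves all libraries. Tools named in the submitters' processing notes are featureCounts 2.0.2, HISAT2 2.2.1 and edgeR, with build GRCh37.p13; their roles are not stated. Gene coordinates are not printed because no annotation of that build was used; promoter windows come from RefSeq on GRCh38.p14. Protein sequences were not used here.

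Counts of all 12 libraries entered a single edgeR 4.0.16 fit (R 4.3.3) of 4 group means, with filterByExpr, TMM scaling, robust dispersion and two-sided quasi-likelihood F tests, adjusted over 14026 genes at 0.05. SE was obtained from each log2 fold change and the root of its F statistic. The fit was also run on simulated data in which few genes changed, evenly up and down, and replicate 3 was not shifted. These data differ in each of these points, so that run does not bear on the calls here. Alternatives used DESeq2 1.42.0, limma 3.58.1 on log2(FPKM + 1) and log2(FPKM + 0.1), other scalings, no filter, a replicate block, and omission of libraries. Replicates were not copies: the chi-square per gene within groups, over genes with at least 20 reads, was 4.21 or more. Deviations from the group mean of libraries with the same number correlated between groups at 0.151 or more for number 1, 0.190 for number 2 and 0.340 for number 3. The 3 deviations of a group cancel out, so a shift shared by the libraries of number 3 also makes numbers 1 and 2 correlate. Correlations between unlike numbers were not computed, and these values cannot show that numbers 1 and 2 are paired. The title numbers were read as pairs in the changes within numbers and in the replicate block. The main fit, which gave the p-values unless another fit is named, held no pairing.

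The members, lists and tests were chosen with earlier results of these data known. Values per library are given for the 5 largest falls, the 2 genes with the smallest adjusted p in each role and the members that did not pass. NPM1 and RRP12 were added after their values were seen. Of the other lists, the 2 genes with the smallest adjusted p and up to 3 that rose are named, and EIF6 was added afterwards.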

Additional observations from a re-analysis of the deposited data

How the results depend on the processing

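Under 22 alternatives to the main fit, 33 of the 38 genes called lower in MK medium with siNC and 35 of the 37 with siRHOB kept their call in each, and no call reversed. The exceptions were POLR1C, PPAN, RRP12, UBTF and WDR75 with siNC and RRP12 and UBTF with siRHOB, lost under the 1.5-fold requirement, which left 33 and 35 genes by construction, and PPAN without Ctl_siNC 3 or MK_siNC 3. The replicate block gave 38 and 37 genes lower, and pairing by number changed no call among the 40 genes. The siRHOB median of -1.21 was -1.14 with upper-quartile scaling, -1.15 with library totals alone, -1.11 with limma on log2(FPKM + 1) and -1.14 on log2(FPKM + 0.1); without single libraries it ran from -1.26 to -1.15, and the siNC median of -1.12 from -1.18 to -1.05. The siRNA medians were near 0 and changed sign without single libraries. In growth medium (0.036) the range was -0.015, without Ctl_siNC 3, to 0.057, without Ctl_siRHOB 3, and replicates 1 and 2 alone gave 0.014. In MK medium (-0.028) it was -0.13, without MK_siNC 3, to 0.063, without MK_siRHOB 3. For the difference between arms (-0.050) the same omissions gave -0.16 and 0.029. The cause was not tested. PPAN and BOP1 had the fewest reads of the 40 genes, at most 348 and 475 in a library.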
